A study of Mus musculus with 6 samples.

Results

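Hepcidin, the peptide encoded by Hamp, and 9 further genes of iron handling were examined in mouse adrenal glands with and without a conditional knockout of Gata6. The 10 genes were Hamp, Slc40a1, Tfrc, Trf, Fth1, Ftl1, Hfe, Hmox1, Slc11a2 and Cp, among 30869 symbols on the array, and every probe that carried one of these symbols was taken, which gave 20 of 45281 probes. RNA of whole adrenals from mice that were adult, female, virgin and of strain B6.FVB was hybridised to bead arrays by Illumina. There were 3 arrays labelled as Gata6 conditional knockout (cKO) and 3 of normal mice without the knockout. The sources used here name no driver of the deletion, and nothing in the labels says whether the samples came from separate animals. The p-values therefore describe the spread over these samples, and that spread may be technical. Gata6 encodes a zinc finger transcription factor.

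Systemic iron is set by the liver hormone hepcidin, which binds the iron exporter ferroportin (Slc40a1) and has it degraded, so that less iron leaves cells. Iron in blood travels on transferrin (Trf), enters cells through the transferrin receptor (Tfrc), leaves the endosome through the transporter Slc11a2 and is stored in ferritin, a shell of heavy (Fth1) and light (Ftl1) chains. Transcription of hepcidin is driven by bone morphogenetic protein (BMP) signals through SMAD proteins and by interleukin 6 through STAT3. Ferritin and transferrin receptor are controlled in large part after transcription, by iron regulatory proteins that bind their messages, and an array reads message levels only.

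The values below are log2 intensities after background correction and normalization between arrays, and a difference is always the mean of the arrays labelled cKO minus the mean of the control arrays. Tested probes were those detected on 3 or more of the 6 arrays (detection p below 0.05), and a probe was called at an adjusted p under 0.05 over all 19210 tested probes (limma, Benjamini-Hochberg). The members were selected on their role in iron handling and with the differences between these groups already known, and Hamp was chosen by its fall on the arrays labelled cKO. Their differences, calls and adjusted p-values are therefore a description and support nothing. Between 18314 and 19459 probes were detected per array, and the number of arrays limits the precision. The adrenal identity was clear from all 8 cortical markers, which were tested, with Cyp21a1 between 15.18 and 15.49 and Cyp11b1 between 13.94 and 14.18. Of the 8, Mc2r was called higher, by 0.54 (SE 0.096, adjusted p = 0.0146, limma), and the other 7 were not called. Over all genes tested 4.34% were called higher. The 1 tested Gata6 probe read 0.40 higher on the arrays labelled cKO (SE 0.10, adjusted p = 0.0545, limma), against the direction of the label. Whether this probe lies inside the deleted part of Gata6 is unknown from the sources used here. It may thus be no check of the labels, and the directions that follow are those the labels give.

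The promoter of Hamp, and that of its neighbouring copy Hamp2, are shown because the sites through which BMP and STAT3 signals are known to act on hepcidin lie close to the start of the gene, and because GATA proteins bind a short motif that can be searched for in the same stretch. Mice carry both genes on chromosome 7. Each sequence is the 250 bases before the annotated start, from RefSeq on build GRCm38.p6, minus strand, written 5′ to 3′, at chr7:30944030-30944279 for Hamp and chr7:30924182-30924431 for Hamp2. Capitals mark matches on either strand to GGCGCC (the BMP element), to TTCNNNGAA (the STAT element) and to AGATAA with a T also allowed as its first and a G as its last base (GATA elements).
Hamp: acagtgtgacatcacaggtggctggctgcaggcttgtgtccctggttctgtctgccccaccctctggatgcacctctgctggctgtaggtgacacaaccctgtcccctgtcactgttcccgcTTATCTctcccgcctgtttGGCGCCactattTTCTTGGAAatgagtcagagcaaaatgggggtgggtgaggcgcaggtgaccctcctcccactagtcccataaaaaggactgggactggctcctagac
Hamp2: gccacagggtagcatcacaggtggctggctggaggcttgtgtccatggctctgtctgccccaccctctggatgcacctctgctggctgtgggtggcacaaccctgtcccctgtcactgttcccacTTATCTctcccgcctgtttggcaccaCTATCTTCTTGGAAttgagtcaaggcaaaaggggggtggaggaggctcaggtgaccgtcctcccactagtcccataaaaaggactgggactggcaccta

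In the Hamp window the GATA match TTATCT began 128 bases before the start, the BMP match GGCGCC 109 bases before it and the STAT match TTCTTGGAA 97 bases before it. The Hamp2 window held the same STAT letters 94 bases before its start and 2 GATA matches, of which CTATCT shares its last base with the STAT match, and the letters GGCGCC were not in it. Aligned end to end, the windows were identical in 227 of 253 columns (89.7%). Over 32851 promoter windows of the same length, 9.59% held GGCGCC, 7.02% held the STAT letters and 26.5% held at least 1 GATA match. A window was found for 6 of the 10 members, and among the other 5 of them only Tfrc held a match, GGCGCC in 1 of its 2 windows. These matches are letters in a window and do not show that a protein binds there.

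Hamp fell on the arrays labelled cKO and Trf rose, while no probe of the other 8 genes was called. Of the 20 member probes, 17 passed the detection filter, and the 3 that did not, 1 of Ftl1 and 2 of Cp, were detected on 0 arrays. Of the 17 tested, 1 was called higher and 1 lower, where 3.92% of all tested probes were called higher, 2.57% lower and 6.49% in either direction. Of all called probes 60.4% were higher, and 41.4% with median scaling over the tested probes. The arrays of the groups did not overlap in 6 of the 17, against 28.1% of all tested probes. The median difference of the 17 probes was 0.0056, and that of all tested probes -0.023. The 15 tested probes other than those of Hamp and Trf lay between -0.37 and 0.29.

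**Figure D1:**
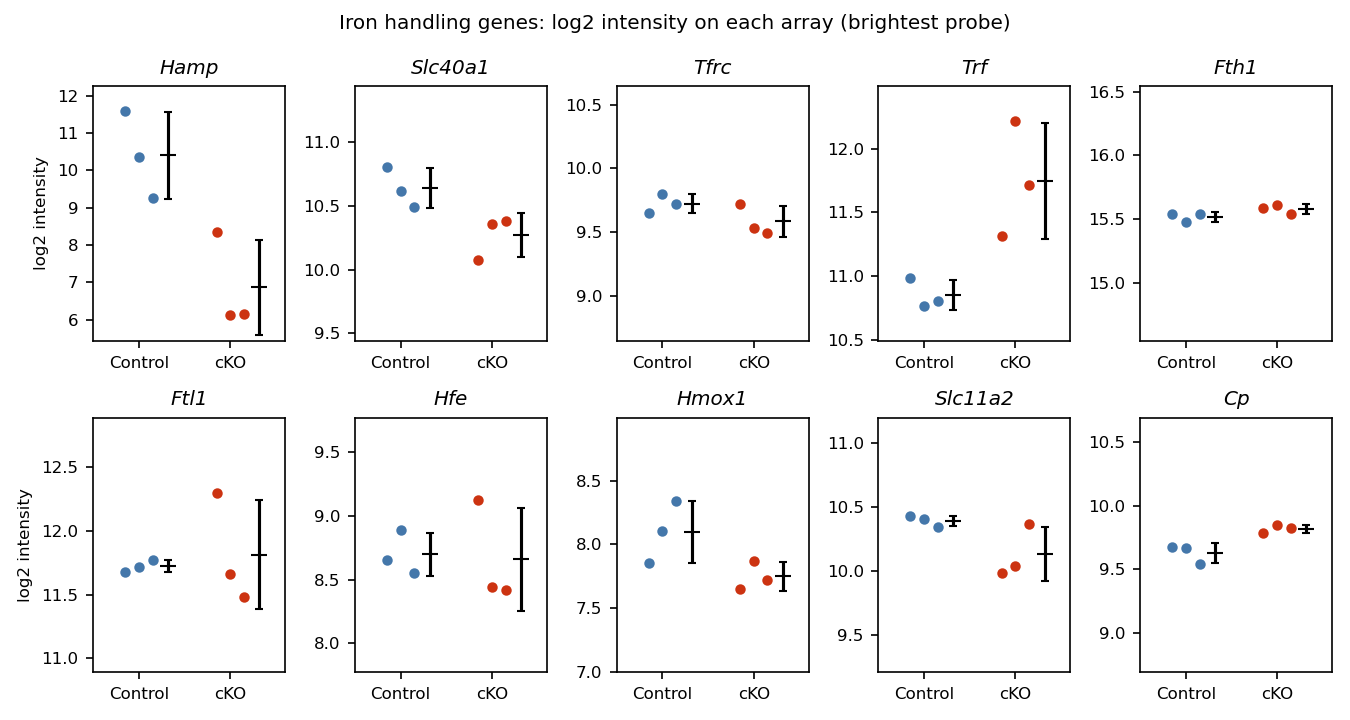
Log2 intensity of the brightest probe of each of the 10 genes, with 1 point per array (blue, control; red, labelled cKO) and the mean ± SD of each group of 3 in black. The vertical axes differ in position, and that of Hamp spans the widest range; the groups lie apart in Hamp, Slc40a1, Trf and Cp.

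**Figure D2:**
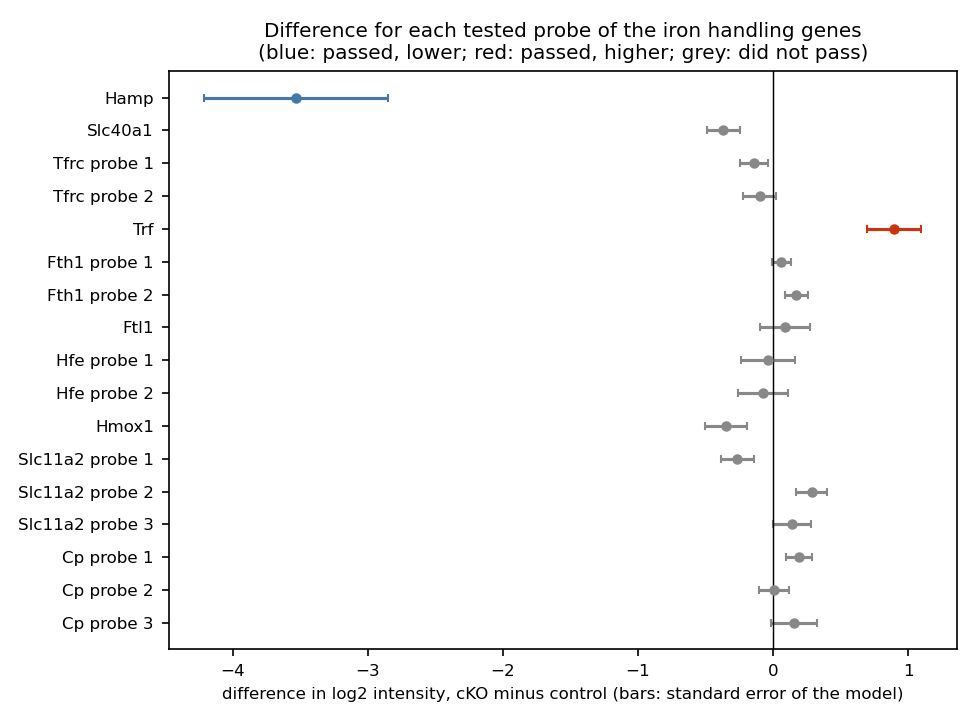
Difference in log2 intensity, cKO minus control, for the 17 tested probes, with the standard error of the model as bars. Hamp at -3.53 and Trf at 0.90 stand away from the others, which lie between -0.37 and 0.29.

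Hamp (chromosome 7, 30942368 to 30944029), the hormone of the pathway, was read by 1 probe. Control replicates 1, 2 and 3 read 11.57, 10.35 and 9.27, and cKO replicates 1, 2 and 3 read 8.34, 6.11 and 6.16. As deposited, before normalization, these were intensities of 2943.7, 1256.4 and 650.9 against 290.5, 57.1 and 63.8. All 3 arrays labelled cKO lay below the lowest control array, but the arrays of either group were also far apart from each other. The group means were 10.40 ± 1.15 and 6.87 ± 1.27 (SD, n = 3), a fall of 11.5-fold on this scale (log2 difference -3.53, SE 0.68, adjusted p = 0.0207, limma). Only 0.416% of all tested probes had a larger SD among the controls, and 0.406% among the arrays labelled cKO. Hamp was detected on all 6 arrays, and its lowest value of 6.11 lay above the lowest detected values of the arrays, 5.11 to 5.25. The call was lost without control replicate 2 (-3.53, adjusted p = 0.0695), without cKO replicate 2 (-3.17, adjusted p = 0.0742), without cKO replicate 3 (-3.18, adjusted p = 0.0867) and with a robust variance (-3.53, adjusted p = 0.122, limma throughout).

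Hamp2 read 10.12, 8.49 and 7.11 on control replicates 1, 2 and 3, in the same order as Hamp. It read 7.89, 5.92 and 6.92 on the arrays labelled cKO, of which the first lay within the range of the controls and the other two below it. The difference was -1.67 (SE 0.72) and was not called (adjusted p = 0.210, limma), and without control replicate 1 it was -0.89. The messages of Hamp and Hamp2 were not compared here, the probe sequences are not in the sources used here, and each probe may read both.

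Whole glands were measured, so fewer cells of a type and less message per cell cannot be told apart in any of these values. Hepcidin is best known as a product of hepatocytes, and of 14 hepatocyte markers 11 were too dim to be tested, 8 of which, Alb, Apoa1 and Ttr among them, were detected on 0 of 6 arrays. The 3 that were tested had a summed log2 intensity of 26.18 to 27.28 on the control arrays and of 27.37 to 30.31 on those labelled cKO, and Cyp2e1, which fat cells express too, was alone in being higher, by 2.25 (SE 0.32, adjusted p = 0.00602, limma). The other two, Serpina1b and Ahsg, differed by -0.20 and -0.49 without a call, and the median of the 3 was -0.20. Erythroid markers were lower beside Hamp without a call. Of 10 listed, 5 were tested and 0 were called by limma (2 at an unadjusted p under 0.05). All 5 lay below 0, as did 6976 of all 13327 genes tested, and the groups overlapped in each of the 5. Their summed log2 intensity was 51.68 to 53.99 on the control arrays and 47.63 to 51.34 on the others. Hbb-b2 was detected on only 2 control arrays and 1 array labelled cKO, and Slc4a1 on 3 and 2. Gata1, Klf1 and Epb42 (Epb4.2) were detected on 0 arrays. The brightest, Hba-a1 and Hbb-b1, both globin genes near the top of the scale, differed by -0.50 (SE 0.16) and -0.15 (SE 0.21). Alas2, the erythroid enzyme that starts haem synthesis, chosen after its values were seen, read 10.10, 9.16 and 8.55 on control replicates 1 to 3 and 7.81, 7.95 and 8.96 on cKO replicates 1 to 3. Like Hamp it was highest on control replicate 1, but among the arrays labelled cKO its highest value was on replicate 3, where that of Hamp was on replicate 1. Hbb-b1 too was highest among the arrays labelled cKO on replicate 3, at 15.80. The part of erythroid cells in the fall of Hamp was not tested.

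The genes whose profile lay closest to Hamp were found by the root mean square distance over the 6 arrays, after each gene's own mean had been subtracted, among 10011 genes. Spp1, which encodes the secreted phosphoprotein osteopontin, was nearest at 0.286, where a flat profile would lie 2.02 away. It read 10.75, 9.53 and 9.22 on the controls and 7.89, 5.29 and 5.42 on the arrays labelled cKO. Next came Rsph4a, a protein of the radial spokes of cilia (0.781), the progesterone-inactivating enzyme Akr1c18 (0.905), the olfactory marker protein Omp (0.918), the lipid phosphodiesterase Smpdl3b (0.934) and the acid phosphatase Acpp (0.957). Of these, Rsph4a was detected on 1 and Acpp on 2 of the arrays labelled cKO. Hamp2 was eighth closest by this measure at 1.02 (rank 8). Closeness here rests in part on the difference between the groups and is a description of 6 arrays.

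**Figure D3:**
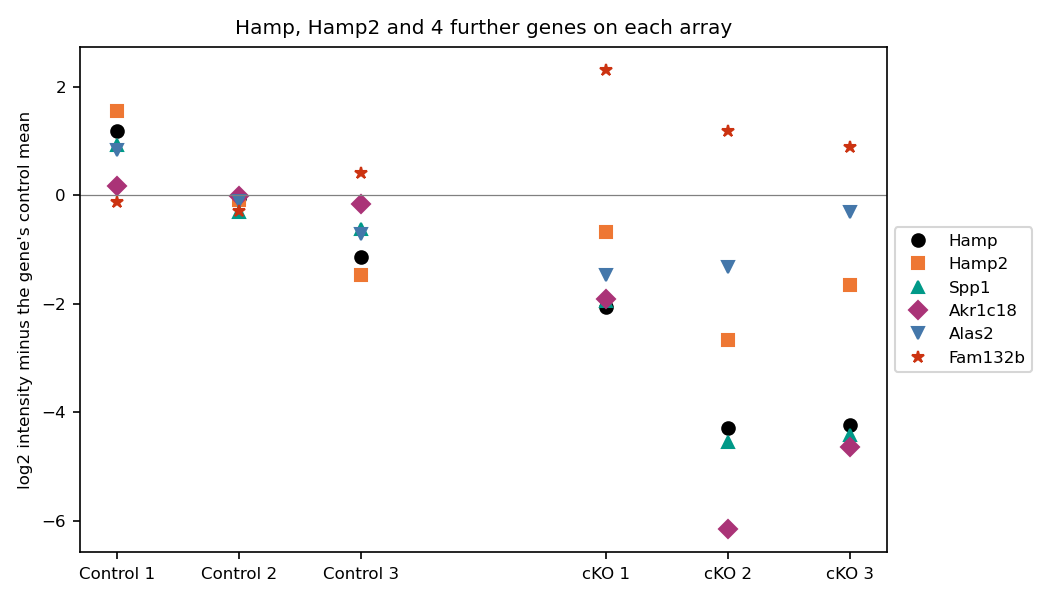
Log2 intensity minus the gene's own control mean, on each array, for Hamp, Hamp2, Spp1, Akr1c18, Alas2 and Fam132b. Hamp and Spp1 lie close to each other on every array, Alas2 lies nearer to its control mean on cKO replicate 3 than on the other arrays labelled cKO, and Fam132b is above its control mean on all 3 arrays labelled cKO.

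Slc40a1 (chromosome 1, 45908070 to 45926532), the exporter that hepcidin removes from the cell surface, read 10.81, 10.62 and 10.49 on the control arrays. On the arrays labelled cKO it read 10.07, 10.36 and 10.38, each below the lowest control. The difference of -0.37 (SE 0.12) was not called (adjusted p = 0.119, limma); it passed only with median scaling over the tested probes (-0.49, adjusted p = 0.0414). Cp (chromosome 3, 19956933 to 20009750) encodes ceruloplasmin, a copper oxidase that loads exported iron onto transferrin. Its brightest probe read 9.68, 9.67 and 9.54 on the controls and 9.79, 9.85 and 9.83 on the others, so the groups lay apart by a small step of 0.19 (SE 0.10). The other tested Cp probes differed by 0.0056 and 0.16, with overlapping groups, and none of the 3 was called.

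Trf (chromosome 9, 103208876 to 103230286), the carrier of iron in plasma, read 10.99, 10.76 and 10.81 in the controls. In the cKO group it read 11.31, 12.22 and 11.71. All 3 arrays labelled cKO lay above the highest control, and they were spread more widely than the controls. The means were 10.85 ± 0.12 and 11.75 ± 0.46 (SD, n = 3), a rise of 1.86-fold (log2 difference 0.90, SE 0.20, adjusted p = 0.0342, limma). The call was lost without control replicate 1, 2 or 3, without cKO replicate 2 or 3 and without an intensity trend in the variance, at adjusted p-values of 0.0598, 0.108, 0.0817, 0.0532, 0.110 and 0.0590, while the difference stayed between 0.67 and 0.96 in those settings. Fat cell markers were higher on the arrays labelled cKO, as Trf was. Of 6 listed, 4 were tested and 2 called higher, Adipoq (1.38) and Cidec (1.49), where 4.34% of all genes tested were called higher. The summed log2 intensity of the 4 was 33.62 to 35.82 on the controls and 38.54 to 41.47 on the others. Among the controls this sum was lowest on replicate 1, where Trf was highest. Fabp4 and Retn were detected on 0 arrays. Adipoq read 12.03, 12.61 and 11.82 on cKO replicates 1, 2 and 3, so its highest array was that of Trf and its lowest was not. The same held for Cidec (10.45, 11.48 and 10.29) and Plin1 (7.42, 8.19 and 7.25). Lep was instead highest on cKO replicate 1 (9.88, against 9.20 and 9.18). All 5 tested chromaffin cell markers lay above 0 as well, as did 6351 of all 13327 genes tested. Of the 5, 1 was called higher, Pnmt (0.97), against 4.34% of all genes tested. The brighter Chgb and Chga differed by 0.46 and 0.39 without a call. The summed level of the 5 was 61.63 to 64.2 on the controls and 65.2 to 66.46 on the others. The part of fat and chromaffin cells in the rise of Trf was not tested.

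No probe of the uptake genes was called. The 2 probes of Tfrc (chromosome 16, 32608896 to 32632794) differed by -0.14 (SE 0.11) and -0.099 (SE 0.12), and the brighter one read 9.65, 9.80 and 9.72 on the controls against 9.72, 9.54 and 9.50. The groups overlapped in both probes. Hfe (chromosome 13, 23702034 to 23710854), an MHC-like partner of the transferrin receptor whose loss causes haemochromatosis, differed by -0.036 (SE 0.20) and -0.075 (SE 0.19) at its 2 probes. The brighter Hfe probe was highest on cKO replicate 1, at 9.13, and lowest on cKO replicates 2 and 3, at 8.44 and 8.42, on either side of the controls at 8.66, 8.89 and 8.55.

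Slc11a2 (chromosome 15, 100387898 to 100424209), which moves iron out of endosomes and is known to be made as several isoforms, had 3 tested probes that disagreed in direction. The brightest read 10.43, 10.40 and 10.35 on the controls and 9.98, 10.04 and 10.37 on the arrays labelled cKO, a difference of -0.26 (SE 0.12). The next read 8.89, 8.92 and 8.81 on the controls and 9.03, 9.17 and 9.27 on the others, a difference of 0.29 (SE 0.11). The groups overlapped in the first of these and lay apart in the second, as they did in the dimmest probe, which differed by 0.14 (SE 0.14). None of the 3 was called.

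Storage and breakdown showed small differences. Fth1 (chromosome 19, 9980600 to 9985111) was among the brightest messages of the gland, and its probes read from 15.47 to 15.61 and from 14.73 to 15.06. Its differences of 0.063 (SE 0.068) and 0.17 (SE 0.084) were not called, they lie near the top of the scale of 15.8, where a difference may be missed, and both turned below 0 under either median scaling. Ftl1 (chromosome 7, 45457944 to 45459886) read 11.68, 11.72 and 11.77 on the controls and 12.29, 11.66 and 11.48 on the arrays labelled cKO. Only cKO replicate 1 was above the controls and the other two were below, so the difference of 0.091 (SE 0.18) rests on that array; without it the difference was -0.15. Hmox1 (chromosome 8, 75093618 to 75100593), the haem oxygenase that frees iron from haem, read 7.85, 8.10 and 8.34 on the controls and 7.65, 7.87 and 7.72 on the others. These overlapped, and the difference of -0.35 (SE 0.16) was not called (adjusted p = 0.234, limma). Of 15 macrophage markers, cells that recycle iron, 13 were tested and 1 was called, Cd68 (-1.13, lower). Over all genes tested 2.64% were called lower. The median of the 13 was -0.17, with 10 below 0 and 3 above, where 6976 of all 13327 genes tested lay below 0. The groups lay apart in 4 of the 13, against 3861 of all 13327 genes tested. These 4, Cd68, Mrc1 (-0.46), Spic (-0.47) and Cd163 (-0.57), were all lower, and only Cd68 was called. The summed level of the 13 was 111.6 to 115.62 on the controls and 108.49 to 114.28 on the others. Marco and Cd5l were detected on 0 arrays. The brightest of the 13, Lyz2 and C1qb, differed by -0.32 and 0.017 without a call. Of 6 kidney markers, 1 was tested, Slc12a1, which differed by -0.11 without a call.

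Of 29 genes listed for the control of hepcidin, a list that also holds its copy Hamp2, 19 were tested, of which 1 was called higher and 0 lower, with a median difference of 0.045. Over all 13327 genes tested, each by its brightest probe, 6.98% were called, 4.34% higher and 2.64% lower, and the median was -0.013, so the share called in the list (5.26%) lay near that of all genes. The 1 called was Fam132b, the array's symbol for erythroferrone, a hormone that erythroid precursors release and that represses hepcidin by binding BMP ligands. It read 5.68, 5.52 and 6.22 on the controls and 8.12, 7.002 and 6.70 on the arrays labelled cKO, which all lay above the controls. The difference was 1.46 (SE 0.35, adjusted p = 0.0449, limma) and rests on 1 probe, as the other Fam132b probe was detected on 0 arrays. The control values lie near the background, so its size is uncertain, and the call was lost in 9 of 16 other settings, among them each setting without a single control array and without cKO replicate 2 or 3 (1.32 to 1.74). Bmp6, the BMP ligand that iron induces, and the co-receptor gene Hfe2 were detected on 0 of 6 arrays. Id1, a target gene of BMP signals, differed by 0.16 (SE 0.15), the hepcidin repressor Tmprss6 by -0.28 (SE 0.18) and the iron sensor Tfr2 (Trfr2 on the array) by 0.24 (SE 0.17), none of them called.

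Further genes of iron transport and sensing numbered 29, of which 23 were tested, 2 called higher and 1 lower, with a median of -0.032. The share called was 13%, against 6.98% of all genes tested. Lcn2, which encodes a lipocalin that binds iron-carrying siderophores, read 5.32, 5.36 and 4.82 on the controls and 8.37, 7.74 and 7.80 on the arrays labelled cKO. It was 2.81 higher (SE 0.23, adjusted p = 6.8e-04, limma), but was detected on 2 of the 3 control arrays, so that size rests partly on background signal. Hp, the plasma protein haptoglobin that binds free haemoglobin, read from 10.75 to 11.31 on the controls and from 11.84 to 12.42 on the others, 1.01 higher (SE 0.18, adjusted p = 0.0147, limma). Its other two tested probes were also higher, by 0.80 and 0.94, but their groups overlapped and neither was called (adjusted p = 0.151 and 0.0839). Slc46a1, a folate transporter that has also been described as a haem carrier, fell by 0.75 (SE 0.16, adjusted p = 0.0289, limma). It read 9.51, 10.03 and 9.83 on the controls and 9.10, 8.81 and 9.20 on the others, and its call was lost without control replicate 2 (adjusted p = 0.0922) or 3 (0.0705) and without cKO replicate 2 (0.0943) or 3 (0.0626), and with the replicate number as a block (0.0528).

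In haem synthesis and breakdown, 17 of 20 genes were tested, 1 was called higher and 0 lower, with a median of -0.060. The share called was 5.88%, against 6.98% of all genes tested. The gene called was Alad, which makes porphobilinogen, at 13.22, 13.24 and 13.39 on the controls and 13.54, 13.62 and 13.75 on the others, 0.35 higher (SE 0.087, adjusted p = 0.0476, limma). It was lost in 10 of 17 other settings, among them median scaling over all probes (0.19, adjusted p = 0.409) and over the tested probes (0.090, adjusted p = 0.586), and each setting that left out 1 array other than cKO replicate 1 (0.30 to 0.41). In the assembly of iron-sulfur clusters 13 of 20 were tested, with a median of -0.14. Of these 13, 11 lay below 0, as did 6976 of all 13327 genes tested. Their summed log2 intensity was 144.38 to 145.56 on the controls and 142.92 to 143.78 on the others. In this list 1 gene was called lower (7.69%), against 2.64% of all genes tested. This was Fdxr, the reductase that passes electrons by way of ferredoxin to the mitochondrial steroid-making P450 enzymes. It read 13.57, 13.60 and 13.68 on the controls and 13.15, 13.14 and 13.08 on the others, a difference of -0.49 (SE 0.074, adjusted p = 0.00701, limma). With median scaling over the tested probes it was -0.75. Its 3 tested probes all fell. Of 18 NRF2 targets, an oxidative stress programme to which Hmox1 and the ferritin genes are known to belong, 14 were tested and 0 called by limma, 4 of them at an unadjusted p under 0.05, with a median of -0.043, and the brightest, Taldo1, differed by -0.42 (SE 0.12, adjusted p = 0.0797, limma).

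**Figure D4:**
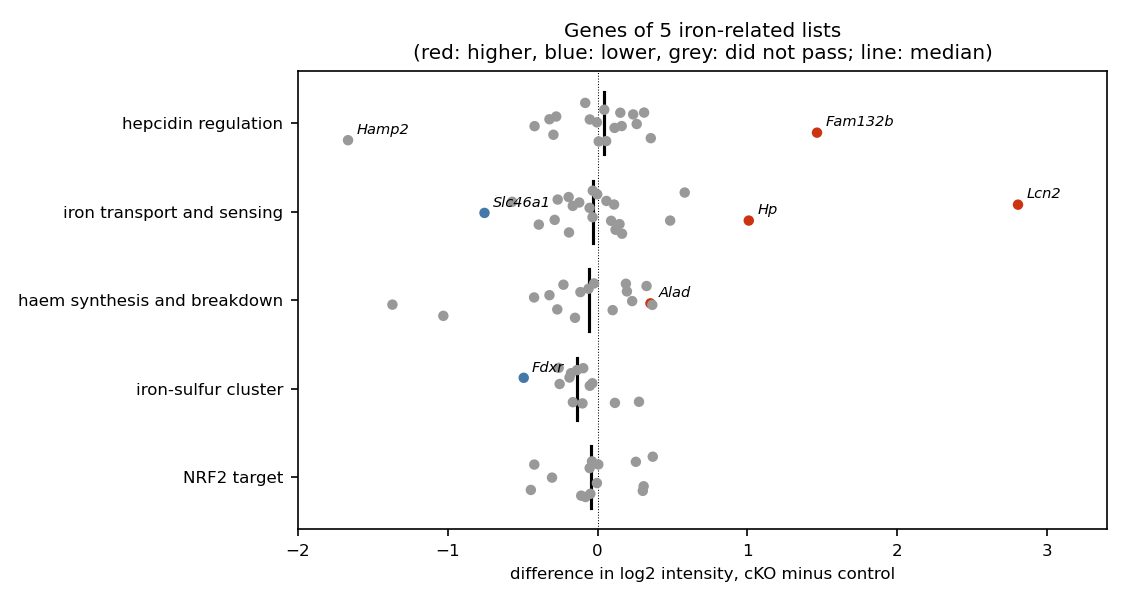
Difference in log2 intensity, cKO minus control, for the tested genes of 5 lists, each gene by its brightest probe, with the list median as a black line. Medians lie between -0.14 and 0.045, and the 6 called genes are named together with Hamp2, which was not called.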

How the data were processed

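The authors deposited non-normalized signals, which are linear probe intensity values, per the file headers. From 30.7% to 33.4% of them were negative on each array, which only background subtraction can give. A deposited detection p-value stands beside each intensity, per the file headers. The series matrix holds intensity values that the authors normalized by a method not given in the sources used here. Its columns had medians of 9.98 to 10.05 and were used as an alternative. 

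Intensities were corrected with limma 3.58.1 (R 4.3.3; normexp with the background inferred from detection p-values, offset 16) and quantile normalized on the log2 scale. The offset pulls the fold of dim probes toward 0. Groups were compared without covariates by limma's linear model with an intensity trend, two-sided. A gene in a list stands for its brightest tested probe, with symbols updated through RefSeq (GRCm38.p6; 27740 probes by current symbol, 8037 by an older one, 9504 unmatched). Alignment and motif searches used Biopython 1.88.

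Named genes were all member probes, Gata6, 6 genes of hepcidin control, up to 3 called genes per pathway list with the largest change (else the brightest), the 2 brightest of each marker list, and the 6 genes closest to Hamp; clone and predicted names were left out. Called markers, Ahsg, Lep, Plin1, Mrc1, Spic, Cd163, Alas2, Hbb-b2 and Slc4a1 were named after their values were seen, as were undetected markers. The members and lists were chosen with earlier results of these data known. Deviations from the group means gave no sign that replicate numbers pair the samples (correlations 0.0437, 0.0364 and -0.0148), and the main fit used no block. With 3 arrays per group this check cannot exclude a pairing.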

Additional observations from a re-analysis of the deposited data

How the results depend on the processing

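Hamp stayed lower and Trf higher under all 17 alternatives, at -4.28 to -2.93 and 0.67 to 1.12. Hamp's adjusted p by limma ran from 0.00128, with the replicate number as a block, to 0.122, with a robust variance. Trf was not called without an intensity trend, which left 0 member probes called higher, and Hamp was not called with a robust variance, which left 0 called lower. Median scaling over the tested probes, chosen after seeing the data, called 2 member probes lower (Hamp and Slc40a1), 2 genes of hepcidin control, 3 of iron-sulfur clusters and 3 NRF2 targets (Cat, Pgd and Taldo1), and it called 782 probes higher and 1106 lower, against 753 and 494. Median scaling over all probes called 1 NRF2 target. Genes of hepcidin control called came to 0 with an offset of 50, without a trend and with a robust variance. They also came to 0 with detection at a p under 0.01 required on all 6 arrays, a filter that Fam132b did not pass. Haem genes called came to 0 without the filter on dim probes and without a trend, and to 3 with array weights, under which iron transport had 5. With the replicate number as a block, hepcidin control and haem genes each came to 0, iron transport lost Slc46a1 and came to 2, and Hamp and Trf kept their calls. The 1 haem gene called was Bach1 in place of Alad under both median scalings and without control replicate 2. Without 1 array at a time, called member probes ranged from 0 to 1 higher and from 0 to 1 lower, hepcidin control, haem and NRF2 genes from 0 to 1, iron transport from 2 to 5, and all probes from 480 to 1213.

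Some small member differences changed sign. The Fth1 probes came to -0.034 and -0.046 under median scaling, and to -0.14 and -0.15 over the tested probes. Ftl1 came to -0.096 under the latter, to -0.011 with array weights, and to -0.15 to 0.26 without 1 array. The Hfe probes came to 0.012 and 0.046 under median scaling, and to -0.27 to 0.087 and -0.22 to 0.043 without 1 array. The second Cp probe came to -0.082 over the tested probes and to -0.049 to 0.072 without 1 array. The cause was not tested. Dim probes such as those of Lcn2 and Fam132b in the controls lie near background, which limits their sizes.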

Other observations

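The genes here were chosen after their values were seen. Bach1, a repressor of Hmox1 that haem inactivates, read 8.17, 7.01 and 8.004 on the controls and 6.77, 6.62 and 5.69 on the arrays labelled cKO. These did not overlap, and the difference of -1.37 (SE 0.36) was not called (adjusted p = 0.0585, limma). It was called under both median scalings, with array weights and without control replicate 2. Heph, a copper oxidase that works beside ferroportin, was higher at both of its tested probes, by 0.58 and 0.57 (adjusted p = 0.0554 and 0.0664, limma), and neither was called. Its brightest probe was called with median scaling over the tested probes, a robust variance and array weights, and without cKO replicate 1. Socs3, a target gene of STAT3 signals, read 9.37 on control replicate 1 against 7.36 and 6.82 on the other controls, and 7.21 to 7.55 on the arrays labelled cKO. The Socs3 groups overlapped, and the difference of -0.42 (SE 0.55) was not called. Control replicate 1 was also the highest array for Hamp, Hamp2, Spp1, Alas2 and Slc4a1. A link between Socs3 and these genes was not tested.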
